A study of Mus musculus with 70 samples.

Results

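Tumor cell lines recovered from kidney tumors at the fourth in vivo passage (KPT P4) were compared with those recovered at the sixth (KPT P6), to see which transcripts still changed late in serial passage. The members are the 3 P4 samples of the kidney route (replicates 1, 3 and 5) and its 5 P6 samples (replicates 1 to 5) on the first set of slides, chosen by route, passage and array set in the labels. They are 8 of 65 RNA samples in the series, which were measured on 70 single-colour Agilent mouse arrays. This pair of passages was proposed for comparison because their balance of long to ribosomal protein mRNAs is similar. All groups are sub-lines of RENCA, a renal adenocarcinoma line of the mouse with wild-type Vhl, made to express GFP and then grown in young female wild-type BALB/c mice with an intact immune system and given no drug. Per the methods, cells were injected under the capsule of the left kidney, tumors were digested, and the cells were kept in culture until GFP-negative cells were no longer found, before RNA extraction or the next injection. The labels name the tumor itself as the source and describe homogenisation, so culture is stated by the methods alone. P4 cells went through 4 rounds of injection and recovery and P6 cells through 6. Other groups used here are the line before injection (P0, 2 samples), earlier and intermediate kidney passages (P2 and P3 with 2 samples each, P5 with 5) and cells recovered from lung metastases after tail vein injection (T-LM P4 and P6, 4 samples each). The model is 1 parental line, and nothing states whether replicates were separate lineages, mice or cultures, so p-values measure the spread between these samples, which may be technical.

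Serial injection and recovery is a classical way to obtain tumor cell sub-lines that grow or spread more readily in the host. RENCA cells derive from the renal cortex of a BALB/c mouse, and renal tumor cells commonly lose differentiated tubule functions and take up transcription programs of other tissues. Genes of the germline, many of them X-linked and kept silent by promoter methylation in somatic cells, are often found active in tumor lines. NF-kB transcription factors mediate inflammatory signals, and they switch on their own inhibitors, so that transcripts of the inhibitor Nfkbia and of the subunit Relb are usual readouts of the pathway.

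The level of a gene is given as the log2 signal of its probe minus the 75th percentile of that array, so 0 is a bright probe and values near -9 are at the background. Correlations over 20941 probes ran from 0.957 to 0.974 between P4 samples, from 0.978 to 0.992 between P6 samples, and from 0.963 to 0.981 between a P4 and a P6 sample. The share of probes well above background was 31.5% to 35.8%. P4 replicates 1 and 3 stood apart from P4 replicate 5 in genes of macrophages and dendritic cells. Of 24 listed markers, 21 could be tested. These 2 samples had all 21 markers well above background, P4 replicate 5 had 9, and the P6 samples had 10 to 14. The mean level of the 21 markers was -2.90 and -2.58 in P4 replicates 1 and 3, -6.36 in replicate 5 and between -5.87 and -5.23 at P6. The summed signal of the markers, in multiples of the 75th percentile, was 5.87 and 9.66 in these 2 samples, 3.64 in P4 replicate 5 and 4.28 to 5.84 at P6. None of the 21 was called (2 had an unadjusted p under 0.05 in limma), and their median change was -1.64. The defining marker Adgre1 was well above background in P4 replicates 1 and 3 and in no P6 sample, as were Mrc1 and Il1b. Hence some results below are also given for P4 replicate 5 by itself or with the mean marker level as a covariate. The part of the markers in the results was not tested beyond these values. In such bulk samples a lower level can come from fewer cells of a type or from less RNA per cell, which cannot be told apart.

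The balance of long housekeeping mRNAs over ribosomal protein mRNAs, a ratio that moves with RNA integrity and with labelling, was compared first. The index, the mean level of the long mRNAs minus that of the ribosomal protein mRNAs, was -6.57, -6.40 and -6.76 in P4 replicates 1, 3 and 5. At P6 it was -7.86, -7.32, -6.72, -6.47 and -6.51 in replicates 1 to 5. P6 replicates 1 and 2 were thus below all P4 samples and the other 3 lay within their range. The means of -6.58 ± 0.18 (SD, n = 3) and -6.98 ± 0.60 (SD, n = 5) differed by -0.40, which the exact 2-sided permutation test over 56 assignments did not separate (p = 0.321). Since the passages were picked for a similar balance, the test cannot serve as separate evidence of it. By comparison, the intermediate P5 samples had a mean of -7.87 ± 0.57 (SD, n = 5).

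Few probes were called between the passages, in a fit that called 28% of changes of 1 and 85% of changes of 2 (log2) on simulated data. Of 20978 probes tested, limma called 49 (0.234%) at an adjusted p (Benjamini-Hochberg) of at most 0.01, 41 higher (0.195%) and 8 lower (0.0381%) at P6, and 3040 had an unadjusted p under 0.05. With 1 probe a gene, 30 of 11818 genes were called (0.254%), 25 of them higher (0.212%) and 5 lower (0.0423%). The median change over all these genes was -0.03. No called probe overlapped between P4 and P6 samples, whereas 11.2% of all genes tested did not overlap either, 6.08% higher and 5.16% lower. Only 1 slide held both passages, with P4 replicate 5 and P6 replicate 1, and there the difference of the called probes had a median of 0.944 times the fitted change, with the same direction in all 49 because no called probe overlaps. All 49 also lay beyond the P4 range, on the P6 side, on 3 repeat arrays of the same P6 RNA on a later slide, which are not further samples. The number of calls depended on the samples. It was 9 without P4 replicate 1, 26 without P4 replicate 3 and 57 without P4 replicate 5, and it was 20, 20, 17, 18 and 27 without P6 replicates 1, 2, 3, 4 and 5. With slide as a fixed term over all first-set arrays 18 were called, 13 of them among the 49.

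**Figure D1:**
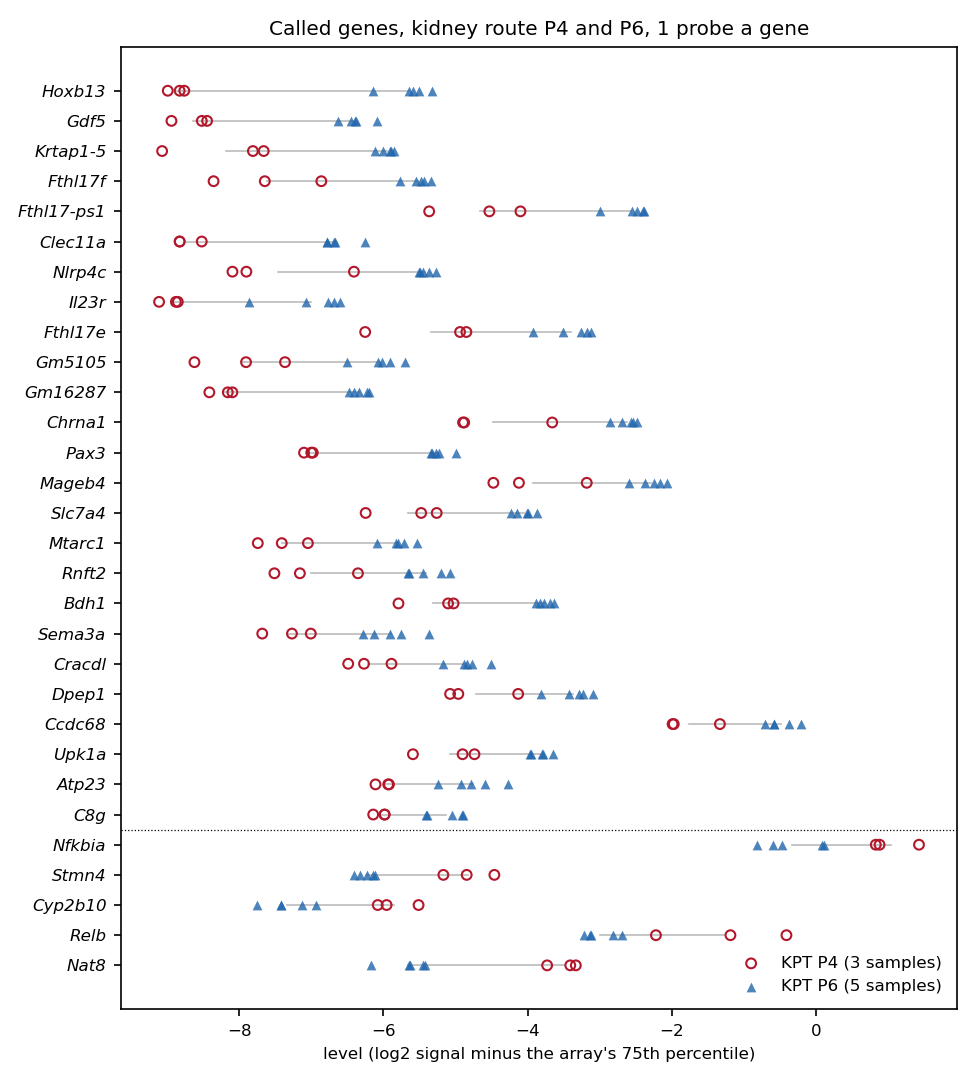
Level (log2 signal relative to the 75th percentile, x axis) of the 30 called genes (y axis) in the 3 P4 samples (open circles) and the 5 P6 samples (triangles), with a grey line between the group means. The 25 genes above the dotted line rose and the 5 below it fell, and in none do the 2 groups overlap.

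Hoxb13 had the largest rise among the called genes. It encodes a posterior homeobox transcription factor, known from the prostate and the hindgut. Its level was -8.76, -8.99 and -8.83 in P4 replicates 1, 3 and 5, not well above background in any of them. At P6 it was -5.64, -5.59, -5.51, -6.15 and -5.32 in replicates 1 to 5, well above background in each, so all P6 samples were far above all P4 samples. The fitted change was 3.22 (SE 0.24, limma adjusted p = 9.25e-06), and the signal was at least 2.29-fold higher at P6 when P4 is raised to the lowest signal that passed as above background. The rise was already present at P5, where the mean level was -6.51 ± 0.48 (SD, n = 5) and 2 of 5 samples passed the background call. The step from P4 to P5 was 2.35 (adjusted p = 0.000288), and that from P5 to P6 was 0.87 (adjusted p = 0.0299). P0, P2 and P3 had mean levels of -8.00, -8.45 and -8.10, at the background as in P4. Leaving out any one of the 8 samples kept the call, with changes of 3.14 to 3.35, and of the 24 other settings that tested it only the one with replicate number as a block lost it (adjusted p = 0.0612). It was the only called gene among the 24 HOX genes tested, a list added after the values were seen, whose median change was 0.04.

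Pax3, Gdf5 and Chrna1 were also called higher. Pax3, a paired box transcription factor of the muscle and neural crest lineages, had levels of -7.00, -7.10 and -6.98 in the P4 samples. Its P6 levels were -5.34, -5.23, -5.33, -5.28 and -5.00, so both groups were tight and far apart. The change was 1.79 (SE 0.22, adjusted p = 0.000928), at least 3.03-fold, and leaving out any one sample kept the call, which was lost with slide as a fixed term (change 1.80, adjusted p = 0.0127). Gdf5, a ligand of the bone morphogenetic protein family with a role in joint formation, went from -8.64 ± 0.27 (SD, n = 3) to -6.39 ± 0.19 (SD, n = 5). It was above background in 0 of 3 P4 and 3 of 5 P6 samples, a change of 2.25 (SE 0.27, adjusted p = 0.000928) and at least 1.36-fold. Gdf5 lost its call without P4 replicate 1 (adjusted p = 0.0107) and with slide as a fixed term (change 2.18, adjusted p = 0.354). Chrna1, which encodes the alpha subunit of the muscle acetylcholine receptor, was already above background at P4, with levels of -4.90, -3.66 and -4.88. At P6 it was -2.85, -2.69, -2.56, -2.47 and -2.53, a change of 1.86 (SE 0.32, adjusted p = 0.00989). P4 replicate 3 was the highest of the P4 samples and still below all P6 samples. A dimmer probe of the gene changed by 1.91 (adjusted p = 0.00202). Chrna1 and Pax3 were the 2 called members of the 12 skeletal muscle genes tested (against 0.212% of all genes), of which 5 were higher in all P6 than in all P4 samples (against 6.08%) and none lower. The median change of the list was 0.44, and it was 0.77 among the 4 members well above background on all 8 arrays. Relative to the P6 mean, the list median was -0.72, -0.91 and -0.29 in P4 replicates 1, 3 and 5. A gene could be tested through its P5 and P6 arrays alone, as Pax3 was, so these counts can favour rises. Tnnc1, cardiac and slow muscle troponin C, changed by 1.26 without passing the threshold (adjusted p = 0.0466). Chrna1 kept its call in 1 of the 8 fits that left out a sample, with an adjusted p of up to 0.0648, and lost it with slide as a fixed term (adjusted p = 0.163), where the dimmer probe kept it (adjusted p = 0.000825).

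**Figure D2:**
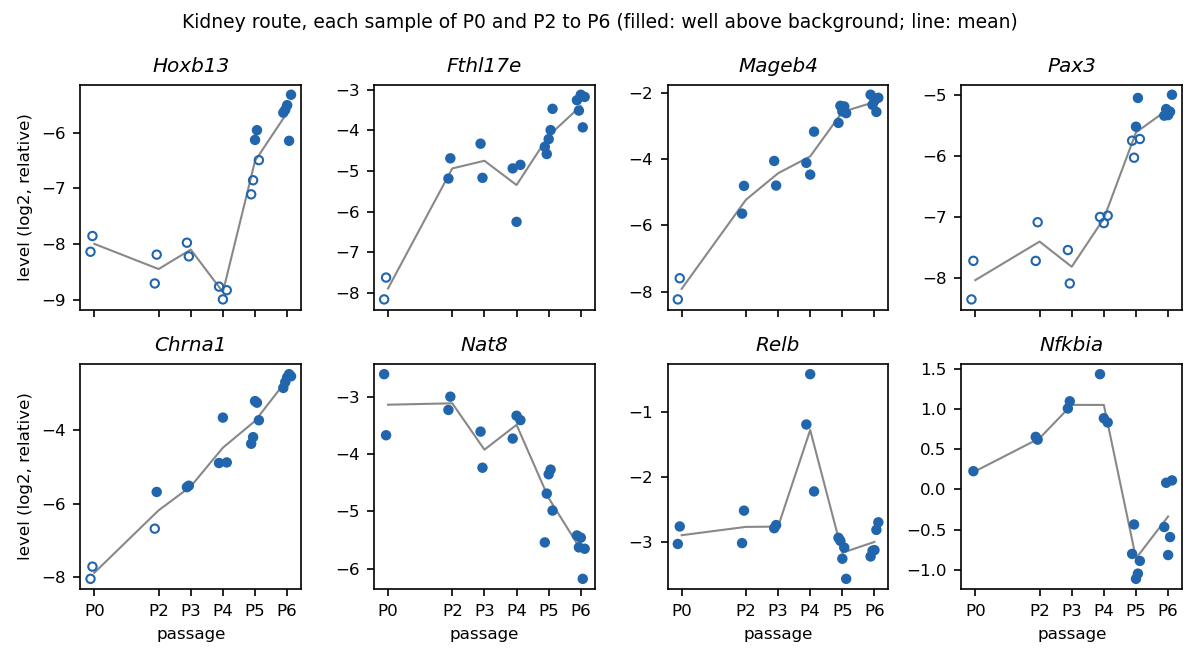
Level (log2 signal relative to the 75th percentile, y axis) of 8 called genes in each sample of P0 and of kidney-route P2 to P6 by passage (x axis; P1 is not shown), with filled circles for samples well above background, open circles for others and a line through the means. Hoxb13 and Pax3 were not well above background in any sample shown up to P4, though among these passages Pax3 had its highest mean at P4. Fthl17e, Mageb4 and Chrna1 were already raised by P4, and Relb had its highest mean at P4.

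Several of the called rises were germline genes. A list of 56 germline genes was added after these values were seen, so its counts are a description, and 51 of them were on the array and 16 could be tested. Of these 16, 4 were called higher (against 0.212% of all genes) and none lower, 11 were higher in all P6 than in all P4 samples (against 6.08% of all genes) and none lower, and the median change was 0.89. With slide as a fixed term all 4 lost the call. A gene could be tested through its P5 and P6 arrays alone, so these counts can favour rises. The 11 members that were well above background on all 8 arrays had a median change of 0.87. The 4 called members were Fthl17f and Fthl17e, X-linked genes for ferritin heavy chain-like proteins made in testis and early embryo, Mageb4, an X-linked member of the MAGE family of tumor antigens, and Nlrp4c, an oocyte member of the NLRP family. Fthl17-ps1, a further copy not on the list, was called higher as well. The bases before their starts are shown because the 3 neighbouring copies were all called higher. The sequences are the 250 bases upstream of the RefSeq start, 5′ to 3′ on the plus strand of chromosome X (build GRCm38.p6), with the 2 longest runs that all 3 share, of 36 bases each, in capitals.
Fthl17e, chrX:9033236-9033485: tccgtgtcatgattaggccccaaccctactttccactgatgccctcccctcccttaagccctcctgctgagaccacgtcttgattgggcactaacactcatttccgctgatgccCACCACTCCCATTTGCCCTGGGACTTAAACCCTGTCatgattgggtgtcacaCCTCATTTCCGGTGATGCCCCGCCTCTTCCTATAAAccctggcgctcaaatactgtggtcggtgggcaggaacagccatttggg
Fthl17-ps1, chrX:9043301-9043550: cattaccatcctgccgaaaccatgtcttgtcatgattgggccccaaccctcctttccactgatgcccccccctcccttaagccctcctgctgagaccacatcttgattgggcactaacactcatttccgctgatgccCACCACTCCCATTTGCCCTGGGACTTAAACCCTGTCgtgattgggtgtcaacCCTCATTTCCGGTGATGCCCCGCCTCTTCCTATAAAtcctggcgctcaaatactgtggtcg
Fthl17f, chrX:9062840-9063089: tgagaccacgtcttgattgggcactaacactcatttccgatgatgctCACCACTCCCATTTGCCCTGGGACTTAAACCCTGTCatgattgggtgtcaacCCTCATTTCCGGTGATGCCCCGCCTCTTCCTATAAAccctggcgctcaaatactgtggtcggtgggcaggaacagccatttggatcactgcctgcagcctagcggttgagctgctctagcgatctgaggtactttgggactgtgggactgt
The first shared run begins 136, 113 and 203 bases before the start of Fthl17e, Fthl17-ps1 and Fthl17f, and the other 84, 61 and 151 bases before it. Since these copies are much alike, a probe of one may also bind transcripts of another, which was not tested.

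The levels of Fthl17e were -4.94, -6.25 and -4.85 in P4 replicates 1, 3 and 5 and -3.26, -3.51, -3.12, -3.93 and -3.18 in P6 replicates 1 to 5. P4 replicate 3 was the lowest sample, and all P6 samples lay above all P4 samples. The change was 1.95 (SE 0.33, adjusted p = 0.00937). Fthl17-ps1 was brighter and changed by 2.10 (SE 0.29, adjusted p = 0.0025), from -4.67 ± 0.64 (SD, n = 3) to -2.57 ± 0.25 (SD, n = 5). Fthl17f was above background in none of the P4 and all of the P6 samples and changed by 2.11 (SE 0.30, adjusted p = 0.00254), at least 2.5-fold. All 3 copies had been at the background in P0, with means of -7.89, -7.97 and -7.97, and Fthl17e had reached -4.94 at P2. Mageb4, named although it falls outside the naming rule, had levels of -4.12, -4.47 and -3.18 at P4. At P6 it was -2.07, -2.37, -2.25, -2.59 and -2.16, and the change was 1.64 (SE 0.28, adjusted p = 0.00928). P4 replicate 5 was the closest to P6 of the 3 P4 samples. From P0 on the mean of Mageb4 was higher at each passage shown, from -7.92 at P0 to -5.23, -4.43, -3.92, -2.59 and -2.29 at P2, P3, P4, P5 and P6. Nlrp4c had levels of -8.10, -7.90 and -6.41 at P4, of which only replicate 5 was above background, and -5.42 ± 0.10 (SD, n = 5) at P6, a change of 2.05 (SE 0.29, adjusted p = 0.00254). In each of these genes P4 replicate 5 was the P4 sample closest to P6. When P4 was represented by replicate 5, the change was 1.45 for Fthl17e, 1.53 for Fthl17-ps1 and 1.35 for Fthl17f. It was 0.99 for Nlrp4c and 0.89 for Mageb4. Each of these changes was smaller than that with all 3 P4 samples. Fthl17e and Mageb4 each kept their call in 1 of the 8 fits that left out a sample, Nlrp4c and Fthl17f in 5 and Fthl17-ps1 in 6, with adjusted p-values of up to 0.0444, 0.0545, 0.02, 0.0156 and 0.0128. The adjusted p with slide as a fixed term was 0.0425 for Fthl17e, 0.0118 for Fthl17-ps1, 0.0595 for Fthl17f, 0.177 for Mageb4 and 0.116 for Nlrp4c.

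Other members of the germline list had positive changes that did not pass the threshold. Npm2, an oocyte histone chaperone, changed by 1.49 (adjusted p = 0.0133) and was above background in 0 of 3 P4 and 2 of 5 P6 samples. Mageb3 changed by 1.19 (adjusted p = 0.0252) and Xlr3b, an X-linked lymphocyte regulated gene, by 0.79 (adjusted p = 0.0341). Rhox5, an X-linked homeobox gene that was bright in all samples, was at 3.57 ± 0.29 (SD, n = 3) and 4.14 ± 0.12 (SD, n = 5). The list had a negative median in each P4 sample relative to the P6 mean, -1.15, -0.88 and -0.91 in replicates 1, 3 and 5. In its called members, however, replicate 5 was the P4 sample closest to P6. With the mean macrophage marker level as a covariate in limma, Fthl17f, Nlrp4c and the unlisted Fthl17-ps1 kept their calls. Their changes were 1.81, 1.83 and 1.89 (adjusted p = 0.00176, 0.00323 and 0.00292). Fthl17e and Mageb4 lost theirs, with changes of 1.70 and 1.48 (adjusted p = 0.0138 and 0.0164). The part of the macrophage genes was not tested beyond these values.

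The other named rises concerned genes of varied function. Krtap1-5, a keratin-associated protein of hair, had levels of -7.81, -9.07 and -7.66 at P4 and -6.00, -6.12, -5.89, -5.85 and -5.91 at P6. No P4 sample was well above background and all P6 samples were, and the change was 2.23 (SE 0.27, adjusted p = 0.000928), at least 1.84-fold. Its step from P5 to P6 was 1.48 (adjusted p = 0.00275) and that from P4 to P5 was 0.75 (adjusted p = 0.0914). Clec11a, a secreted C-type lectin that acts as a growth factor for bone and blood progenitors, showed the reverse order, with a step of 2.55 to P5 (adjusted p = 1.42e-05) and of -0.46 from there to P6 (adjusted p = 0.136). Its change from P4 to P6 was 2.09 (SE 0.20, adjusted p = 0.000128), but only 1 P6 sample was above background, so that the bound is 1.15-fold. Il23r, a receptor subunit for interleukin 23, changed by 1.95 (SE 0.27, adjusted p = 0.0025), was above background in 0 of 3 P4 and 2 of 5 P6 samples, and gave no bound above 1. Its P0 mean of -5.95 was above the P6 mean of -7.00. The long non-coding RNAs Gm5105 and Gm16287 changed by 1.92 and 1.89 (adjusted p = 0.0025 and 0.00473), at least 1.73-fold and 1.42-fold. Krtap1-5 kept its call whichever sample was left out and Clec11a in each of the 7 such fits that tested it. Gm5105 lost it in 1 of 8 and Il23r in 2 of 8, with adjusted p-values of up to 0.0131 and 0.0143, while Gm16287 lost it in all 8, with values up to 0.021. Krtap1-5, Clec11a, Gm5105 and Gm16287 kept their calls with slide as a fixed term, and Il23r lost its call (adjusted p = 0.0151).

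Many of these rises start from the background. Of 41 called rises, 17 were not well above background on any P4 array, and their fold changes are therefore bounds. For comparison, 33705 probes that were not above background on any of the 8 arrays had a median change of 0.16 from P4 to P6, with 5th and 95th percentiles of -0.36 and 0.45. The rises named next, Sema3a apart, were chosen after their values were seen. Bdh1, the mitochondrial enzyme that interconverts ketone bodies, changed by 1.55 (SE 0.24, adjusted p = 0.00593), with a change of 1.48 at its second probe. Dpep1, the renal dipeptidase of proximal tubules, changed by 1.35 (SE 0.22, adjusted p = 0.00885). Its P5 mean of -2.63 was above the P6 mean of -3.37, so the rise was larger at the step to P5, at 2.10 (adjusted p = 0.000325), than over both steps. Upk1a, a uroplakin of the urothelium, changed by 1.25 (adjusted p = 0.00674), and Sema3a, a secreted axon guidance factor and the called member of the 27 semaphorins, ephrins and their receptors tested, by 1.43 (adjusted p = 0.0054). Fxyd2, a regulatory subunit of the sodium pump in kidney tubules, was the brightest, at 2.29 ± 0.10 (SD, n = 3) and 3.17 ± 0.07 (SD, n = 5) at the probe that was called, and changed by 0.88 (adjusted p = 0.00593).

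The remaining called genes were also named after their values were seen. Ccdc68, a coiled-coil protein of the centriole, was well detected throughout, at -1.33, -1.99 and -1.97 in the P4 samples and -0.70, -0.58, -0.37, -0.20 and -0.58 in the P6 samples. It changed by 1.28 (SE 0.21, adjusted p = 0.00876), and its P5 mean was -1.61, near the P4 mean of -1.76. The step from P5 to P6 was 1.12 (adjusted p = 0.00331). Slc7a4, a relative of the cationic amino acid transporters, changed by 1.61 (adjusted p = 0.00643), and its P5 mean of -3.99 was already close to the P6 mean of -4.05. Mtarc1, a mitochondrial molybdenum enzyme, was above background in 0 of 3 P4 and 5 of 5 P6 samples and changed by 1.61 (adjusted p = 0.00928), at least 2.06-fold. Its P0 mean of -6.28 was above the P4 mean of -7.40. Atp23, a peptidase of mitochondrial ATP synthase assembly, was also higher in P0, at -4.99, than in P4, at -5.99 ± 0.10 (SD, n = 3), and reached -4.76 ± 0.36 (SD, n = 5) at P6. Rnft2, Cracdl and C8g, the gamma chain of complement component 8, changed by 1.60, 1.38 and 0.91. Like Fxyd2, Plac8, Dusp13 and Ptprt were called at a dimmer probe of the gene only. The Plac8 probe changed by 2.13 (at least 3.22-fold), that of the dual specificity phosphatase Dusp13 by 1.17, and that of the receptor tyrosine phosphatase Ptprt by -1.63 (at least 2.15-fold lower at P6). The brighter Plac8 probe changed by 0.94 (adjusted p = 0.0111). Slc7a4, Ccdc68, Mtarc1, Cracdl and Upk1a lost their calls in each of the fits that left out a sample, with adjusted p-values of up to 0.023, 0.045, 0.0525, 0.0381 and 0.0292. Bdh1 and Atp23 kept theirs in 1 of 8, Dpep1, Sema3a and C8g in 2 and Rnft2 in 3, while the called probe of Fxyd2 lost it in all 8 (adjusted p up to 0.0333). The called probes of Plac8, Dusp13 and Ptprt kept their calls in 2, 5 and 1 of 8. With slide as a fixed term Bdh1 and Rnft2 kept their calls, and the other genes of this and the preceding paragraph lost theirs, with adjusted p-values from 0.0105 for Mtarc1 to 0.34 for Ccdc68. Of the 49 called probes, 11 had no symbol. At an adjusted p of at most 0.05, 142 probes were counted.

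Of the 5 genes that fell, the first 3 act in metabolism and the cytoskeleton. Nat8, an N-acetyltransferase of kidney and liver that takes part in the detoxification of cysteine conjugates, had levels of -3.73, -3.33 and -3.41 in the P4 samples. In P6 it was at -5.42, -5.63, -5.46, -6.18 and -5.65, all well below P4. The change was -2.18 (SE 0.29, adjusted p = 0.00222). P0 and P2 had means of -3.14 and -3.11, near that of P4, and P5 had -4.77 ± 0.52 (SD, n = 5), between P4 and P6. Cyp2b10, a cytochrome P450 induced by drugs in the liver, was above background in 3 of 3 P4 and 0 of 5 P6 samples and changed by -1.49 (SE 0.24, adjusted p = 0.00848), at least 1.74-fold lower at P6. Stmn4, a microtubule-binding stathmin of neurons, had means of -4.82 ± 0.35 (SD, n = 3) and -6.24 ± 0.12 (SD, n = 5) and changed by -1.42 (SE 0.22, adjusted p = 0.0054). Its P5 mean was -4.54, so the fall lay in the last step, at -1.70 (adjusted p = 0.000279). Nat8 kept its call in 6 of the 8 fits that left out a sample, losing it without P4 replicate 1 or 3 (adjusted p up to 0.0127), and with the P4 samples reduced to replicate 5 it changed by -2.26 (adjusted p = 0.0386). Cyp2b10 and Stmn4 kept theirs in 1 of 8, with adjusted p-values of up to 0.0541 and 0.024. With slide as a fixed term Nat8 kept its call, and Cyp2b10 and Stmn4 lost theirs (adjusted p = 0.177 and 0.178).

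The other called falls were a subunit and an inhibitor of NF-kB. Relb, the subunit of the non-canonical pathway, was at -1.19, -0.41 and -2.22 in P4 replicates 1, 3 and 5. At P6 it was at -3.22, -3.14, -3.13, -2.81 and -2.70, so P4 replicate 5 was the closest to P6 and still above all its samples. The change was -1.73 (SE 0.29, adjusted p = 0.00928), and the second probe changed by -1.60 (adjusted p = 0.00694). Nfkbia, the inhibitor that holds NF-kB in the cytoplasm, was at 1.43, 0.88 and 0.83 in the P4 samples and at -0.47, 0.08, -0.81, -0.59 and 0.11 in the P6 samples. All 3 P4 samples, replicate 5 included, lay above all P6 samples, and the change was -1.38 (SE 0.23, adjusted p = 0.00928). The 250 bases before its start are shown for the binding sequence they hold, on the minus strand of chromosome 12 (RefSeq, build GRCm38.p6), with a match to the kappa B consensus, read on the opposite strand, in capitals.
Nfkbia, chr12:55492648-55492897: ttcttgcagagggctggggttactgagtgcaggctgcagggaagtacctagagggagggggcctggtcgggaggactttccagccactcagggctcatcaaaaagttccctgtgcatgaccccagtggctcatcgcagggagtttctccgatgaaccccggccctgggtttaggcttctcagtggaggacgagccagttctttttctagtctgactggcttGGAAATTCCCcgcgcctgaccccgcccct
The match covers 10 bases and begins 29 bases before the start. Searched on both strands of the 250 upstream bases, the kappa B consensus was matched in 7.25% of 32851 promoters, that is in 8.23% of 27025 genes. Of the 40 tested genes of NF-kB subunits, inhibitors and targets, 31 had a promoter in the table and 16 of these held a match (51.6%). The list names targets of NF-kB by its definition, so a high share of matches lies in its making and describes the list only. A match describes the letters only and is no measured binding.

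Among P0 and kidney-route P2 to P6, Relb had its highest mean at P4 and Nfkbia at P3 and P4, with P1 not analysed here. Relb had means of -2.90, -2.77 and -2.76 at P0, P2 and P3, -1.27 at P4 and -3.17 at P5, with a step from P4 to P5 of -1.90 (adjusted p = 0.00311). Nfkbia had means of 0.64, 1.05 and 1.05 at P2, P3 and P4 and -0.86 at P5, a step of -1.90 as well (adjusted p = 0.000759). P6 was therefore nearer to P5 than to P4 in both genes, and in Relb also near P0. For Nfkbia the step from P5 to P6 was 0.52 (SE 0.20, limma adjusted p = 0.141). Its P0 level was 0.23 in replicate 2 and was missing in replicate 1. The list of 40 tested genes, added after the values were seen, had 2 called lower (against 0.0423% of all genes), namely Relb and Nfkbia, and 9 lower in all P6 than in all P4 samples (against 5.16% of all genes), none higher, with a median change of -0.69. Nfkb2, the partner of Relb, changed by -1.05 (adjusted p = 0.0367), and the inhibitor Nfkbie by -1.004 (adjusted p = 0.053). The signalling adaptor Traf1 changed by -1.25 (adjusted p = 0.0604) and the feedback enzyme Tnfaip3 by -1.27 (adjusted p = 0.115), while the subunit Rela was at 1.46 ± 0.34 (SD, n = 3) and 0.73 ± 0.34 (SD, n = 5).

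The NF-kB list differed among the P4 samples, as the macrophage markers did. Its median relative to the P6 mean was 1.01, 0.53 and 0.22 in P4 replicates 1, 3 and 5, with 35, 25 and 16 of 40 genes above all P6 samples, while the macrophage markers had medians of 2.97, 3.49 and -0.54. Over all genes tested, 26.9%, 35.5% and 20.1% lay above all P6 samples in these 3 samples. With replicate 5 standing for P4, Relb changed by -0.78 (adjusted p = 0.335) and Nfkbia by -1.17 (adjusted p = 0.182). With the mean macrophage marker level as a covariate Relb kept its call, with a change of -1.45 (adjusted p = 0.00961), and Nfkbia changed by -1.25 (adjusted p = 0.0143). Both genes kept their calls in only 1 of the 8 fits that left out a sample, with adjusted p-values of up to 0.0513 and 0.0567, and both lost them with slide as a fixed term (adjusted p = 0.0303 and 0.0549). How far cells with macrophage genes take part in these levels was not tested beyond these values.

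**Figure D3:**
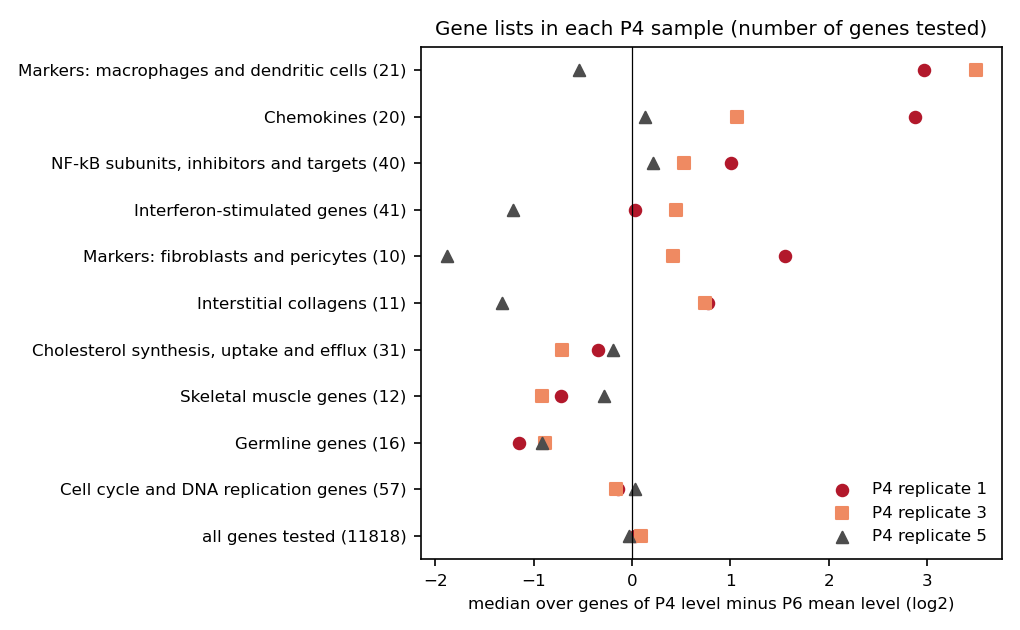
Median over the genes of a list (y axis, number of genes tested in brackets) of the level in a P4 sample minus the P6 mean (log2, x axis), for P4 replicates 1 (circles), 3 (squares) and 5 (triangles). Macrophage markers lie at 2.97 and 3.49 in replicates 1 and 3 and at -0.54 in replicate 5, whereas germline genes lie between -1.15 and -0.88 in all 3.

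Chemokines had a negative median change with none called by limma and 11 at an unadjusted p under 0.05. Of 20 tested, 5 were lower and 1 higher in all P6 than in all P4 samples (against 5.16% and 6.08% of all genes), and the median change was -1.59. Cxcl3, a neutrophil attractant, was at -0.57, -2.23 and -2.32 in the P4 samples and between -4.02 and -3.13 at P6, a change of -1.86 that did not pass (adjusted p = 0.0327). It was one of those that lay above all P6 samples in each of the P4 samples. Ccl4, a macrophage chemokine, was at -0.43 and -2.54 in P4 replicates 1 and 3 and at -8.71 in replicate 5, not above background in replicate 5 or at P6, and so followed the macrophage markers. The list median relative to P6 was 2.88, 1.06 and 0.14 in P4 replicates 1, 3 and 5.

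Genes of cholesterol synthesis, uptake and efflux had a positive median change. Of 31 tested, 7 were higher and 2 lower in all P6 than in all P4 samples (against 6.08% and 5.16% of all genes), the median change was 0.41, and none was called by limma (12 at an unadjusted p under 0.05). Relative to the P6 mean, the list median was -0.35, -0.71 and -0.19 in P4 replicates 1, 3 and 5. Msmo1, a sterol demethylation enzyme, changed by 1.09 (adjusted p = 0.0779). Abca1, the exporter of cholesterol, was above background in 3 of 3 P4 and 0 of 5 P6 samples, and changed by -2.01 (adjusted p = 0.039). Fos, an immediate-early transcription factor, was at -3.60, -4.31 and -4.20 in the P4 samples and between -2.04 and -1.66 at P6, a change of 2.25 (adjusted p = 0.0256). Nid2, a basement membrane protein, changed by 2.18 (adjusted p = 0.0436) and was above background in 0 of 3 P4 and 5 of 5 P6 samples.

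Further lists held no gene called by limma. Among 57 cell cycle and DNA replication genes the median change was 0.07, among 78 ribosomal protein genes 0.16 and among 62 genes of the mitochondrial respiratory chain 0.19, with 7, 7 and 8 genes at an unadjusted p under 0.05. The 41 interferon-stimulated genes had a median change of 0.29 with no gene free of overlap, and P4 replicate 5 was 1.21 below the P6 mean in the median while replicates 1 and 3 were 0.03 and 0.45 above it. The 11 interstitial collagens differed between P4 samples, with medians of 0.78, 0.74 and -1.32 relative to the P6 mean in replicates 1, 3 and 5. Col1a1, the chain of type I collagen, was at -0.29, -2.89 and -8.02 in P4 replicates 1, 3 and 5 and between -4.74 and -2.49 at P6. Fibroblast and pericyte markers were at a summed signal of 0.245 to 3.77 at P4 and 0.522 to 1.38 at P6, with 4 to 8 and 5 to 8 of 10 tested markers above background, and their part in the collagen values was not tested. Markers of lymphocytes, neutrophils, endothelial cells, normal tubule, podocytes, lung epithelium, red blood cells and adipocytes held no called gene either, with 1 to 8 members tested per list.

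The study's 14 signature genes of kidney tumor lines, which the study chose on samples of this series, held no called gene (4 at an unadjusted p under 0.05 in limma), and their median change was 0.24. The 4 genes that the study singled out among those raised in Vhl-knockout RENCA cells (Postn, Tnfsf13b, Ppef1 and Samsn1) held none either. Cyba, a subunit of the phagocyte NADPH oxidase and a member of the signature, was at -1.11 and -0.75 in P4 replicates 1 and 3 and at -9.02 in replicate 5, against -4.05 to -3.34 at P6, so that its change of -0.04 averages 2 samples above and 1 below P6. Il34, a cytokine for macrophages, was at 0.10, -0.56 and -2.11 in the P4 samples and between -0.39 and -0.09 at P6, and changed by 0.59 (adjusted p = 0.408). Tnfsf13b, of the Vhl-knockout genes, was the one without overlap, at -3.26 ± 0.14 (SD, n = 3) and -2.89 ± 0.07 (SD, n = 5), and changed by 0.37 (adjusted p = 0.268).

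The change was then compared with that of the tail vein route over the same passages, in one fit of both routes without shared samples between the 2 contrasts. From T-LM P4 to P6, 299 of 22228 probes were called (1.35%), and the difference between the routes was called for 39 probes (0.175%), with 2029 at an unadjusted p under 0.05. Hoxb13 stayed at the background in T-LM, with means of -8.80 ± 0.32 and -8.71 ± 0.31 (SD, n = 4 each), and its change was 3.14 larger in the kidney route (SE 0.39, adjusted p = 2.35e-05). Gdf5 changed by 0.25 in T-LM, and the difference was 1.99 (SE 0.37, adjusted p = 0.00587). Dyrk4, a protein kinase among the 14 signature genes and not called in the kidney route (-0.92, adjusted p = 0.194), rose by 1.63 in T-LM (adjusted p = 0.00306), a difference of -2.55 (SE 0.47, adjusted p = 0.00564). No slide held both T-LM P4 and T-LM P6 samples, so passage and slide cannot be told apart within that route. With slide as a fixed term only 2 differences were called, so not all of Hoxb13, Gdf5 and Dyrk4 kept theirs.

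Several kidney-route changes had a counterpart in T-LM. Chrna1 changed by 2.29 there (adjusted p = 0.000247), Mageb4 by 1.58 (adjusted p = 0.0015), Pax3 by 1.28 (adjusted p = 0.00773) and Nat8 by -1.36 (adjusted p = 0.00106), and the difference between the routes was not called for any of the 4, with values of -0.43, 0.06, 0.52 and -0.82. Upk1a, Bdh1, Cracdl and Slc7a4 rose in T-LM as well, by 1.36, 1.26, 1.24 and 1.19 (adjusted p = 5.22e-05, 0.000759, 0.00519 and 0.00961). Their differences between the routes were not called. Among genes of the named groups, Fthl17e changed by 0.23 in T-LM (adjusted p = 0.935) and Relb by -0.13 (adjusted p = 0.961), with differences of 1.72 and -1.60 that were not called either (adjusted p = 0.0904 for Fthl17e). T-LM samples carried macrophage markers at both passages, with mean levels of -2.75 ± 0.30 and -3.46 ± 0.38 (SD, n = 4 each).

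**Figure D4:**
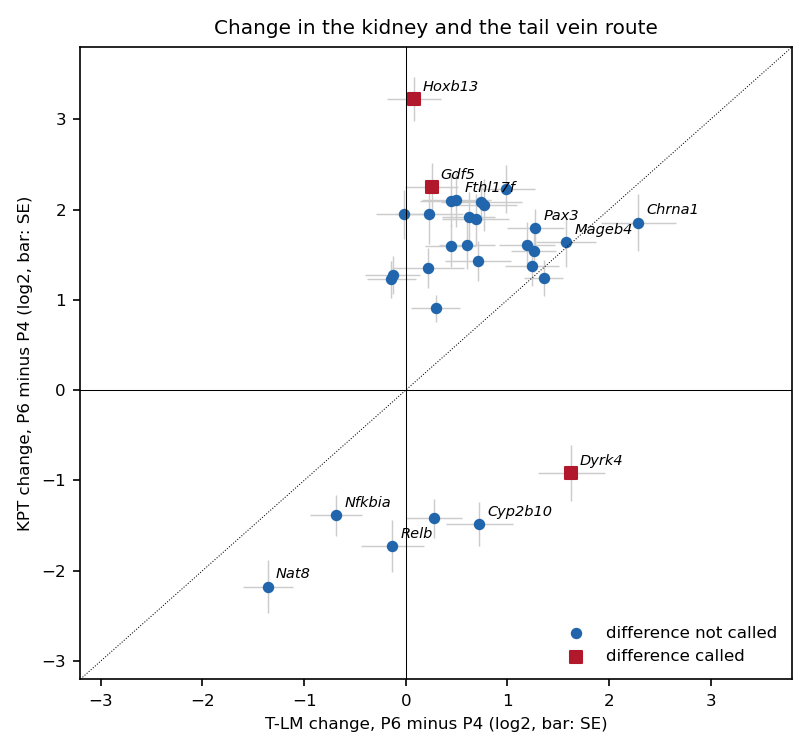
Change from P4 to P6 in the kidney route (y axis) against that in the tail vein route (x axis), both log2 with SE bars, for the 30 called kidney-route genes and Dyrk4, with squares where the difference between the routes was called. Hoxb13 and Gdf5 lie near 0 on the x axis, Dyrk4 lies below 0 in the kidney route and above 0 in the tail vein route, and the dotted line marks equal change.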

How the data were processed

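RNA of the cell lines was hybridised to single-colour Agilent arrays labelled with Cy5. The deposited scanner files hold raw and processed spot intensity (background-subtracted and detrended by scanner software 11.0.1.1 for the 8 arrays compared). The series table deposited by the authors holds log2 values, which matched quantile-normalized log2 raw median signals within 0.107. Of 62976 spots, 3671 controls were left out, and the other 59305 spots were averaged into 55681 probes, of which 28026 had a RefSeq symbol (GRCm38.p6). Outlier spots, 149 to 241 on each of the 8 arrays compared, were left out of these averages array by array.

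Levels were log2 processed signal minus the array's 75th percentile over probes well above background on all 70 arrays. Probes that passed the background call on 2 or more arrays in the fit were tested with limma 3.58.1 (R 4.3.3) over P0 and KPT P2 to P6, by the threshold of the study (Benjamini-Hochberg adjusted p of 0.01 or less, 2-sided). Each gene was represented by its brightest probe. The 12 largest rises, all falls (fewer than 12) and called list members were named, other genes as stated. Members and lists were chosen with earlier results of these data known. Random slide blocks used statmod 1.5.0. The normexp alternative used the median signal because no mean signal was found in the red channel. On simulated data (20690 probes), 28% of changes of 1 and 85% of changes of 2 (log2) were called, with 0 unchanged probes called. The difference between routes was tested on 21736 simulated probes, with 14% and 63% called and 1 unchanged probe called. Arrays have no counting depth, and their number limits the precision.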

Additional observations from a re-analysis of the deposited data

Results flagged for a closer look

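Among 40 sets of 5 P6 values (38 called probes with a symbol, the mRNA index and the macrophage marker mean), 3 held a sample whose gap to its nearest neighbour, relative to the whole range of the group, exceeded the Dixon limit of 0.71, and chance gives about 1 in 20. At P6, the called Plac8 probe was lowest in replicate 5 (ratio 0.752, level -5.76 against -5.04 to -4.80), Fthl17-ps1 was lowest in replicate 4 (ratio 0.722, level -2.999 against -2.56 to -2.39) and Clec11a was highest in replicate 4 (ratio 0.790, level -6.26 against -6.79 to -6.68). In each case the sample lay on the P6 side of all P4 samples. The change from P4 to P6 differed between the kidney and the tail vein route, by the fitted difference in limma, for Hoxb13 (3.14, adjusted p = 2.35e-05), Gdf5 (1.99, adjusted p = 0.00587) and Dyrk4 (-2.55, adjusted p = 0.00564). With slide as a fixed term only 2 differences between the routes were called, so not all of these genes kept theirs.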

How the results depend on the processing

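The 49 calls between P4 and P6 kept their direction in every setting that measured them, and no called gene named in the report changed sign. The number of calls moved more. It was 48 with the percentile over all probes, 39 with quantile normalization, 16 with normexp and 18 with the deposited series values. It was 38 without a filter on dim probes, 52 with the filter on 2 of the 8 arrays and 23 with the filter on all 8. With only the 8 arrays in the fit it was 24, with all first-set arrays of all routes 26, with slide as a fixed term 18 and as a random block 48, with the mRNA index as a covariate 28 and at a threshold of 0.05 it was 142. Settings chosen after seeing the data gave 49 with outlier spots kept, 29 with P4 replicate 5 standing for P4 (4 among the 49) and 78 with the macrophage marker level as a covariate (37 among the 49). Leaving out each sample gave 9 to 57, and the share of higher calls went from 83.7% to 61.5% without P4 replicate 3 and 64.9% without P4 replicate 5, and to 100%, 95%, 95% and 94.4% without P4 replicate 1 or P6 replicates 1, 2 or 4. The replicate numbers did not pair the samples, with correlations of their deviations of -0.10, -0.03 and 0.05, and with replicate number as a block limma called 0 probes, with 2168 at an unadjusted p under 0.05 and all 43 measured calls in the same direction. The causes were not tested, apart from the fewer probes or samples that some settings use.

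Of the lists not added later, 3 members were called. This became 1 with normexp, with the series values, with the filter on all 8 arrays and with all routes, 0 with slide as a fixed term and with the replicate block, 6 with P4 replicate 5 alone, 9 with the macrophage covariate and 10 at a threshold of 0.05, and 1 to 6 when a sample was left out. The 39 called differences between the routes became 2 with slide as a fixed term and 72 with only the P4 and P6 arrays, and 16 (without T-LM P6 replicate 3) to 60 (without KPT P4 replicate 5) when a sample was left out. The mRNA index differed by -0.53 to -0.18 when a sample was left out, always lower at P6. Of 1300 list medians under other settings, 1231 moved by less than the spread between samples.

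Changes of signature and Vhl-knockout genes that were not called turned sign in some settings. With P4 replicate 5 alone, Arhgap33 changed by 0.092, Padi3 by -0.76, Plau by 0.89, Cyba by 5.35 and Adam8 by 0.067, and Il34 passed the threshold with 1.85 (adjusted p = 0.00329). With the macrophage covariate, Padi3 changed by -0.090, Plau by 0.36 and Cyba by 2.52. Plau changed by 0.052 with the percentile over all probes, 0.048 with normexp, 0.057 with the series values, 0.20 with slide as a fixed term and 0.0092 as a random block. Cyba changed by 0.046 with the percentile over all probes, 0.25 with slide as a fixed term and 0.17 as a random block. Rcn3 changed by -0.0080 with normexp, -0.15 with the replicate block and -0.12 with the index covariate, and Postn by -0.13 with the replicate block. When a sample was left out, the range was -0.034 to 1.07 for Il34, -0.30 to 0.74 for Padi3, -0.50 to 0.28 for Plau, -0.28 to 0.66 for Ppef1, -0.71 to 1.55 for Postn, -0.67 to 2.19 for Btg3, -2.74 to 1.40 for Cyba, -1.07 to 1.20 for Rcn3, -0.87 to 2.63 for Fkbp10 and -1.23 to 1.24 for Col6a1. What limits these results is the 3 P4 samples, of which 2 differ from the third, and signals near the background, where fold changes are bounds.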
